A study of Mus musculus with 8 samples.

Results

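The immunoglobulin variable (V) genes were studied here in cultured mouse B cells that lack the arginine methyltransferase Prmt5 and in control B cells. A gene was included where its symbol began with Ighv (heavy chain), Igkv (kappa light chain) or Iglv (lambda light chain) and its mean over all 8 libraries was at least 10 normalized counts. This gave 203 genes of 221 V gene rows, in a table of 39017 genes. They were 103 of 114 heavy, 97 of 104 kappa and 3 of 3 lambda genes. The genes were thus selected on their mean level, which is given below as a description only.

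The cells were splenic B cells of C57BL6/J mice, plated on 40LB cells, a fibroblast feeder line that carries CD40L and BAFF, in medium with IL-4 (1 ng per mL), and taken off the feeder by elutriation at day 4. Such cultures are called induced germinal center B cells (iGBs). The 4 Prmt5-null libraries came from Prmt5 F/F Cγ1-cre cultures, in which the floxed gene is excised once the B cells are activated, and the 4 control libraries came from Cγ1-cre cultures, so that both genotypes carry the Cre. The study's methods describe the 4 samples of each genotype as independent biological samples. The labels give each sample a number, with control as CTRL-10650, CTRL-10370, CTRL-10596 or CTRL-10597 and Prmt5-null as 10617, 10618, 10770 or 10771. Values are given in this order within each genotype, and the labels state no age. The Cγ1-cre driver acts in B cells that transcribe the Ighg1 locus, so a floxed gene is kept in cells that do not. The values are read counts on the exons of a gene divided by the size factor of the library, and whole reads could be recovered from them.

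Each developing B cell joins 1 V gene to a joining (J) gene, with a diversity (D) segment between them in the heavy chain, and the joined gene is then transcribed together with a constant region gene. The joining is done by the Rag1 and Rag2 recombinase in precursor B cells, before a B cell reaches the spleen, and a mature B cell keeps its V genes. A mouse B cell usually expresses kappa or lambda, not both, and most carry kappa. In RNA from many cells, the reads on a V gene depend both on how many cells use it and on how much RNA each of these cells makes, and these cannot be told apart here.

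The libraries were first checked against their labels. Prmt5 had 1291, 1994, 1060 and 1808 normalized counts in the Prmt5-null libraries and 13087, 11084, 11657 and 11267 in the control libraries, with a log2 fold change of -2.98 (SE 0.17, limma adjusted p = 6.14e-06). The libraries held between 36731721 and 50366174 reads on genes, of which 87086 to 145745 fell on the V genes. Over all genes other than V genes, the second principal component (25.9% of the variance) set Prmt5-null libraries 10617 and 10618 and control libraries CTRL-10596 and CTRL-10597 (side A) apart from the other 4 (side B). The study was run as 2 experiments with 2 samples of each genotype in each, which its design text gives by running numbers that no label carries. If those numbers follow the order in which the samples are listed, the experiments are sides A and B, and values within the sides are therefore given beside the chain totals. The marker counts that follow stand beside all genes tested, of which limma called 6.48% (adjusted p below 0.05 and 1.5-fold). Of all genes tested, 3.49% were called higher and 2.99% lower in Prmt5-null, and 29.3% had an unadjusted limma p below 0.05. All 10 B cell markers looked at were measured. Of these 10, Cr2, a complement receptor, was called higher and Cd79a, a signalling chain of the B cell receptor, lower in Prmt5-null. The T cell marker Cd3e was at 0 in all 8 libraries, as were the myeloid markers S100a8 and S100a9, but other members of both lists had reads. The myeloid list summed to 37.0 to 118 normalized counts in Prmt5-null and 31.4 to 122 in control libraries. Neither of its tested genes, Lyz2 and Itgam, was called. The T cell list summed to 357 to 501 in Prmt5-null and 715 to 854 in control libraries. Of the T cell list 3 genes could be tested and 1, the kinase Lck, which activated B cells also express, was called lower. Fibroblast markers were present, at a summed 7120 to 11862 normalized counts in Prmt5-null and 4657 to 8093 in control libraries, and 3 of the 8 tested were called higher in Prmt5-null. Plasma cell markers, whose cells carry much immunoglobulin RNA, summed to 64419 to 69908 normalized counts in Prmt5-null and 68662 to 88987 in control libraries. None of the 8 was called by limma, edgeR or DESeq2, with 5, 4 and 4 at an unadjusted p below 0.05. Of these, Prdm1 and Xbp1, which drive plasma cell differentiation, had log2 fold changes of -0.48 and -0.45 (limma adjusted p = 0.0428 and 0.0305), under 1.5-fold. Irf4, another factor of this differentiation, went the other way, at 0.19 (limma adjusted p = 0.134), without overlap between the genotypes. Of the 8 plasma cell markers, 4 had a log2 fold change below 0 and 4 above. Of 6 germinal center markers, S1pr2 and Gcsam were called lower in Prmt5-null. The part of the fibroblast, plasma cell and germinal center markers in the V gene values was not tested.

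Of the 203 genes, 188 matched the GENCODE M21 annotation of the GRCm38 build by both identifier and symbol. All 188 are annotated there as V genes (type IG_V_gene) and none as V pseudogenes. The 92 matched heavy genes lie between chr12:113578504 and chr12:116000461, all on the minus strand. The 93 matched kappa genes lie between chr6:67555497 and chr6:70704177, with 36 on the plus and 57 on the minus strand. The lambda genes lie between chr16:19085017 and chr16:19260859, on the minus strand. For the other 15 genes the identifier was not listed (11) or carried another symbol (4), so that no position, length or sequence is given for them.

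The last 60 bases of the annotated transcripts of the most used genes are shown because this is the end of the V segment that is joined to D or J and opens the third hypervariable loop. The capitals run from the conserved cysteine codon to the annotated end of the segment.
Ighv9-3: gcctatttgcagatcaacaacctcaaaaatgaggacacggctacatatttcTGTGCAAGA
Ighv1-26: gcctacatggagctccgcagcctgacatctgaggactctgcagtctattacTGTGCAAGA
Ighv1-82: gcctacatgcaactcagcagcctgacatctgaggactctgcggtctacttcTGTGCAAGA
Ighv1-9: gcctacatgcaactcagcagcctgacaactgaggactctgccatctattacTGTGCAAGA
Ighv3-6: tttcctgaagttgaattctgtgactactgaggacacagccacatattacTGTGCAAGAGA
Igkv10-96: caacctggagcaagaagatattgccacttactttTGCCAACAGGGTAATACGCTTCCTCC
Igkv1-117: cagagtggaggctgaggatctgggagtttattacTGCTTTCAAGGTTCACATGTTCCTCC
Igkv1-135: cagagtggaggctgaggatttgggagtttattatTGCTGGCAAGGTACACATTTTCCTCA
Igkv3-4: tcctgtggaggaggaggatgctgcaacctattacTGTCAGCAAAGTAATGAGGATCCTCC
Iglv1: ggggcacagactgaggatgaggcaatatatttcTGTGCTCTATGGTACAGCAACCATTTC
Iglv2: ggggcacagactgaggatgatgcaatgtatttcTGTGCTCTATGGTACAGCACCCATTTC
Iglv3: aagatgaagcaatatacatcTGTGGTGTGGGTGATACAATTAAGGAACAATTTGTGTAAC

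The 5 heavy genes share the same stretch from the cysteine codon, TGTGCAAGA, which lies in the last 15 bases of 57 of the 92 heavy genes with a sequence (62.0%) and of none of the 93 kappa or 3 lambda genes. The kappa and lambda segments shown run for 26 to 40 bases from the start of that codon, so that a light chain V gene brings more of the loop with it. The transcripts of Iglv1 and Iglv2 differed at 12 of 366 compared bases (96.7% identity). The sequence of Igkv19-93, the fifth most used kappa gene, is not given because its identifier carries another symbol in the annotation.

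Usage was expressed as the share of a gene in the summed normalized counts of its chain in each library. Heavy chain usage was spread over many genes, with the 10 most used at 29.5% in all and 21 genes making up 50% of it. The 103 heavy genes ranged from 0.0272% to 5.16%, where even usage would give 0.971%. Kappa usage was similar, with 34.6% in the 10 most used genes, 17 genes making up 50%, and a range from 0.0208% to 4.76%. All 200 heavy and kappa genes had reads in every library. Lambda usage was concentrated in Iglv1, at 70.3%.

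The most used heavy gene was Ighv9-3 (chr12:114140692-114141122). Its share was 5.27, 5.55, 5.16 and 4.67% in the Prmt5-null libraries and 5.44, 5.15, 5.12 and 4.88% in the control libraries. The groups overlapped, and it was the most used heavy gene in 7 of the 8 libraries. Ighv1-26 (chr12:114788372-114788805) followed at 4.31, 4.57, 4.48 and 4.79% in Prmt5-null and 4.39, 4.55, 4.47 and 4.35% in control libraries. It was first in Prmt5-null library 10771, where it exceeded Ighv9-3. Ighv1-82 (2.87%), Ighv1-9 (2.77%) and Ighv3-6 (2.67%) came next, and their ranges over the libraries, 2.50 to 3.22%, 2.51 to 3.17% and 2.51 to 2.80%, overlapped. Per kilobase of exonic length, the levels of the first 2 kept their order, at 5638 normalized counts per kb for Ighv9-3 and 4907 for Ighv1-26. Ighv1-9 stood at 3015, Ighv3-6 at 2926 and Ighv1-82, the longest of the 5, at 2841 normalized counts per kb.

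Igkv10-96 (chr6:68631963-68632442) was the most used kappa gene. Its share was 4.80, 4.61, 4.41 and 4.96% in the Prmt5-null libraries and 4.66, 4.63, 5.15 and 4.87% in the control libraries. It led in 7 of the 8 libraries, the exception being control library CTRL-10650, where Igkv1-117 (chr6:68121046-68121827) stood at 4.70%. Over the libraries Igkv1-117 ranged from 3.91 to 4.70%, Igkv1-135 from 3.31 to 4.26%, Igkv3-4 from 3.16 to 3.73% and Igkv19-93 from 2.88 to 3.56%, so that neighbours in this order overlapped. Per kilobase, Igkv10-96 had 8403 and Igkv1-117 had 6668 normalized counts, ahead of Igkv3-4 at 6013, Igkv6-15 at 5912 and Igkv1-135 at 5880.

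Among the lambda genes, Iglv1 took 68.1, 68.6, 72.2 and 70.7% of the lambda counts in Prmt5-null libraries and 70.0, 70.8, 70.2 and 71.9% in control libraries. Iglv2 took 16.3 to 19.1% in Prmt5-null and 16.2 to 18.5% in control libraries, and Iglv3 took 11.1 to 13.0% and 11.3 to 13.1%. The order Iglv1, Iglv2, Iglv3 held in all 8 libraries. It also held per kilobase, with 19258, 5170 and 3390 normalized counts. Counting error alone gave these shares a 95% interval (Wilson) of at most 0.99 percentage points on either side for Iglv1, and of at most 0.245 for Ighv9-3 and 0.190 for Igkv10-96. These intervals cover counting error only.

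**Figure D1:**
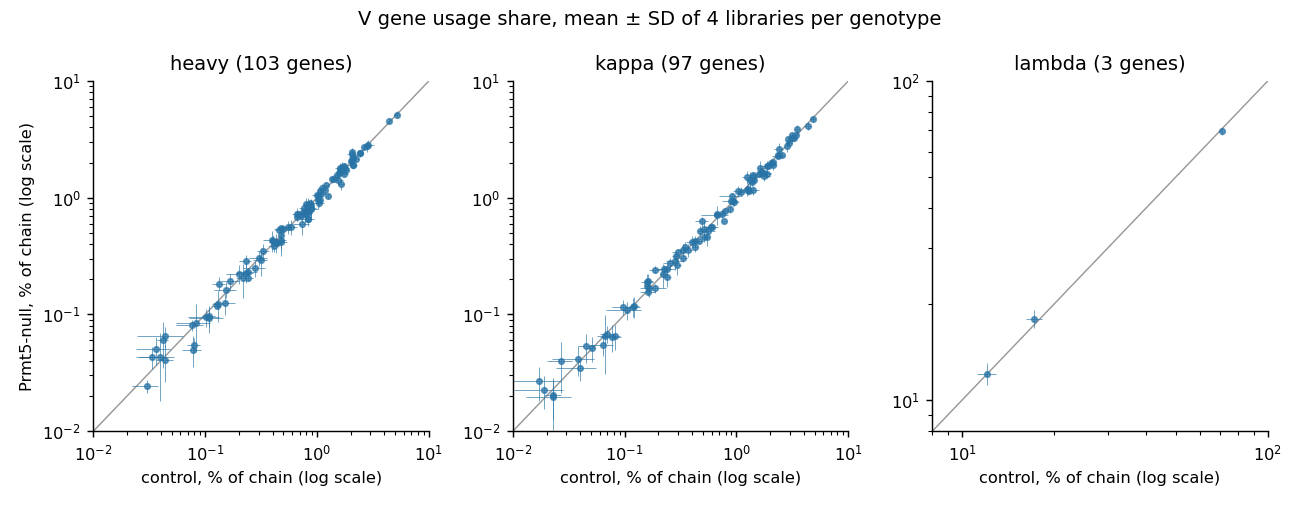
Usage share of each V gene, in percent of its chain on log axes, with the mean and SD of 4 control libraries on the horizontal and of 4 Prmt5-null libraries on the vertical axis; the line marks equal usage. The 103 heavy, 97 kappa and 3 lambda genes lie along the line, with wider error bars for genes under 0.1% of their chain.

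The genotypes used the V genes in close to the same proportions. Among genes with a mean of at least 100 normalized counts, the mean shares of the genotypes were at most 1.27-fold apart for the 77 heavy, 1.30-fold for the 79 kappa and 1.04-fold for the 3 lambda genes. They were less than 1.2-fold apart for 72, 75 and 3 of them. Over all 203 genes, the shares of the genotypes did not overlap for 13 (6.40%), of which 9 were heavy (5 higher and 4 lower in Prmt5-null) and 4 kappa (2 higher and 2 lower). No such value exists over all genes for shares of a chain. On levels, an unlike measure, 19.8% of all genes tested and 2.46% of the V genes did not overlap between the genotypes. Among the 13 genes without overlap of shares was Ighv10-1, at 2.29, 2.79, 2.38 and 2.42% in Prmt5-null and 2.11, 2.02, 2.07 and 2.08% in control libraries. Igkv19-93 was the most used of them, at 3.47 ± 0.10% in Prmt5-null and 3.11 ± 0.18% in control libraries (SD, n = 4 each). Ighv10-1 was chosen for mention after its values were seen.

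Single libraries rarely departed from the rest. The heavy genes with the largest ratio of the highest library to the median were Ighv1-77 (1.39), Ighv14-4 (1.36) and Ighv8-11 (1.33). Ighv1-77 was highest in Prmt5-null library 10771, at 0.403%, against 0.236 to 0.375% in the others. Ighv14-4 had 0.655, 0.647, 0.663 and 0.646% in Prmt5-null and 0.877, 0.679, 0.916 and 0.845% in control libraries, so that its shares did not overlap. Ighv8-11 was highest in Prmt5-null library 10770, at 0.427%, against 0.296 to 0.391% in the others. Among kappa genes these were Igkv14-130 (1.44), Igkv8-19 (1.39) and Igkv12-38 (1.36). Igkv14-130 was highest in control library CTRL-10596, at 0.253%, against 0.145 to 0.183% in the other libraries. Igkv8-19 and Igkv12-38 were highest in Prmt5-null library 10770, at 1.79% and 0.236%. The lambda genes were at most 1.10 times their median. No V gene with a mean of at least 100 was more than 1.5 times its median share in any library.

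The spread between libraries, which came from independent biological samples, is given beside the counting error. For heavy genes with a mean of at least 100, the median coefficient of variation over the 8 libraries was 9.14% for the share and 14.0% for the level, and counting error alone would give 5.11%. For such kappa genes these were 9.94%, 15.6% and 4.10%. The level varied more than the share in 70 of the 77 heavy and 72 of the 79 kappa genes.

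Diversity was described by the effective number of genes, the exponential of the Shannon entropy of the shares, which equals the number of genes when all are used evenly. The heavy chain had an effective number of 68.9, 68.2, 68.8 and 69.1 in Prmt5-null and 69.0, 69.9, 69.0 and 69.8 in control libraries. The means were 68.7 ± 0.39 and 69.4 ± 0.50 (SD, n = 4 each). The difference of -0.66 was larger than either SD, but the groups overlapped. The kappa chain had 58.7, 58.4, 59.3 and 58.7 in Prmt5-null and 59.0, 58.3, 59.5 and 58.6 in control libraries, with means of 58.8 ± 0.41 and 58.9 ± 0.54. For kappa the difference between the genotypes, -0.092, was smaller than either SD. The lambda chain had 2.18 to 2.32 in Prmt5-null and 2.19 to 2.26 in control libraries. The inverse Simpson index, which gives more weight to the most used genes, was 52.9 to 54.5 and 54.3 to 55.3 for heavy, and 45.7 to 47.0 and 46.3 to 46.8 for kappa genes. The 5 most used genes of each library held 17.7 to 18.7% of heavy usage in Prmt5-null and 17.6 to 18.1% in control libraries. For kappa genes this was 19.0 to 20.4% and 18.9 to 19.7%. All these ranges overlapped. Within side A the mean effective numbers of Prmt5-null and control were 68.6 and 69.4 for heavy, 58.5 and 59.1 for kappa and 2.31 and 2.21 for lambda genes, and within side B they were 68.9 and 69.4, 59.0 and 58.7, and 2.20 and 2.25 (2 libraries each). The sides thus had the same direction for heavy and opposite directions for kappa and lambda genes.

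**Figure D2:**
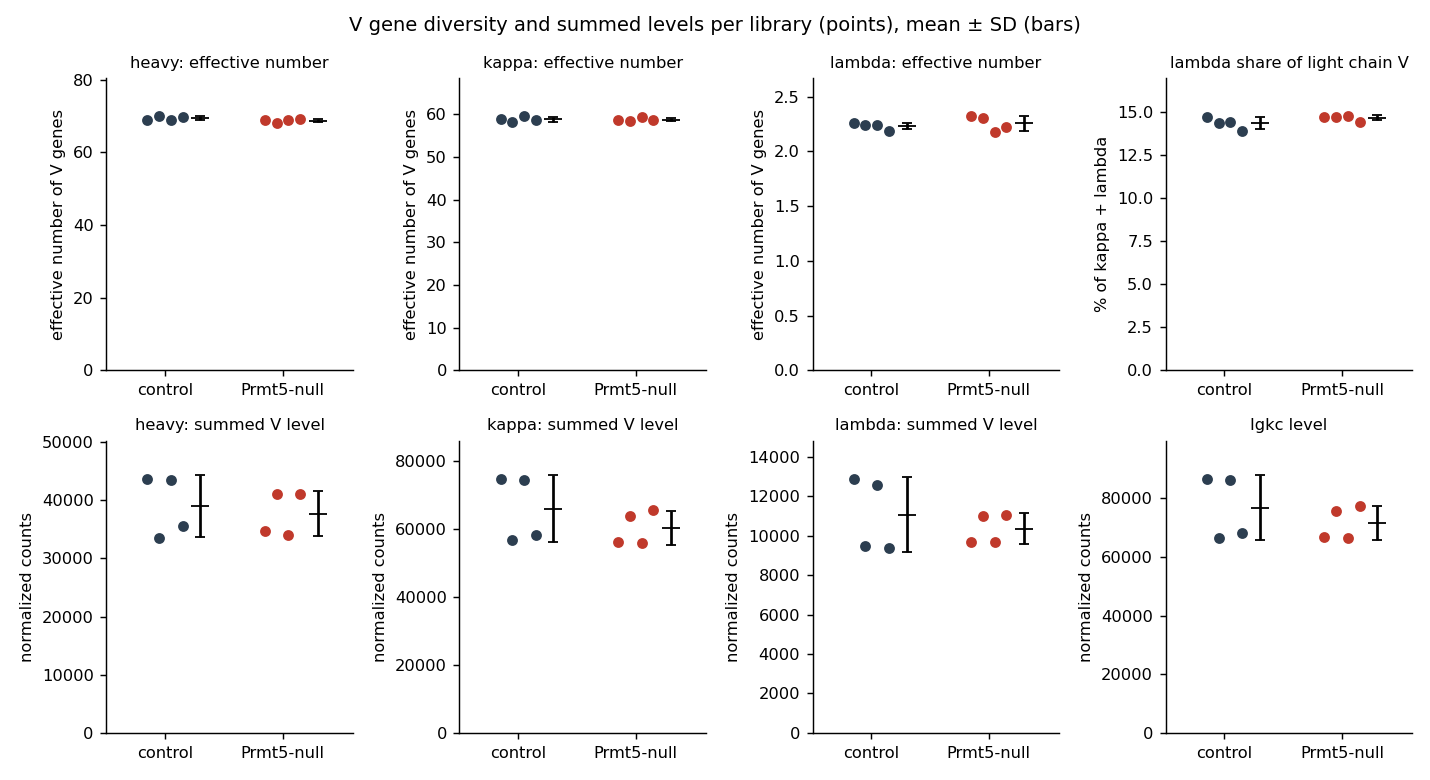
Effective number of V genes per chain, lambda share of the light chain V counts in percent, and summed levels of each chain and of Igkc in normalized counts, with 1 point per library and the mean and SD beside them; all vertical axes start at 0. The effective numbers lie within 68.2 to 69.9 for heavy and 58.3 to 59.5 for kappa genes, while the summed levels spread widely within both genotypes.

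The summed level of each chain varied between libraries of 1 genotype by more than it differed between the genotypes. Heavy V genes summed to 34636, 41046, 33945 and 41046 normalized counts in Prmt5-null and 43594, 33484, 43535 and 35500 in control libraries. Kappa V genes summed to 56104, 63776, 56015 and 65571, and 74666, 56635, 74492 and 58313. Lambda V genes summed to 9672, 11004, 9677 and 11060, and 12867, 9498, 12548 and 9383. Libraries 10618 and 10771 of Prmt5-null and CTRL-10650 and CTRL-10596 of control were the highest 4 for every chain. They were also the highest 4 for Igkc, the kappa constant gene, at 75503, 77277, 86456 and 86113 normalized counts against 66401 to 68069 in the others. The mean sums of Prmt5-null stood at log2 ratios of -0.05 (heavy), -0.13 (kappa) and -0.10 (lambda) to those of control. These ratios were -0.06, -0.15 and -0.08 within side A and -0.04, -0.11 and -0.11 within side B.

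Lambda made up a steady part of the light chain V counts, at 14.7, 14.7, 14.7 and 14.4% in Prmt5-null and 14.7, 14.4, 14.4 and 13.9% in control libraries. The means were 14.6 ± 0.14 and 14.3 ± 0.35% (SD, n = 4 each). The counting interval of a single library was at most 0.283 percentage points either way, and the groups overlapped. The means of Prmt5-null and control were 14.7 and 14.1% within side A and 14.6 and 14.5% within side B. The heavy chain made up 34.1 to 35.4% of all V counts in Prmt5-null and 33.2 to 34.4% in control libraries. The kappa V sum per Igkc count was 0.840 to 0.849 in Prmt5-null and 0.851 to 0.865 in control libraries, a narrow gap in which the groups did not overlap.

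The heavy chain families, genes of like sequence that share the first number in their name, differed widely in usage. Ighv1, the largest mouse family, held 49.1 ± 1.2% of heavy usage in Prmt5-null and 50.3 ± 1.0% in control libraries, with 54 of the 103 genes (52.4%). Its most used member was Ighv1-26. The next families were Ighv5 with 9 genes (10.5%, led by Ighv5-17 at 2.41%), Ighv9 with 4 (8.85%, led by Ighv9-3), Ighv2 with 8 (7.14%, led by Ighv2-9 at 2.09%) and Ighv3 with 5 (4.87%, led by Ighv3-6). The 4 Ighv9 genes were 3.88% of the heavy genes and so took more of the usage than their number. Within Ighv1 the shares ran from 0.0413 to 4.49%. Ighv11-2 and Ighv12-3, genes known for their use by B-1 cells, had 0.0981% and 0.0784%.

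Kappa usage was spread more evenly over the families. Igkv6 (13.8%), Igkv1 (12.6%), Igkv3 (12.6%), Igkv4 (10.4%) and Igkv8 (9.76%) were the most used, led by Igkv6-15 (3.24%), Igkv1-117, Igkv3-4, Igkv4-59 (1.43%) and Igkv8-24 (1.89%). Igkv4 had 26 genes, 26.8% of the kappa genes, and the other 4 had 9 genes each. The family shares of the genotypes did not overlap for 2 of 15 heavy and 2 of 19 kappa families, all 4 higher in Prmt5-null. The levels, not shares, of 19.8% of all genes tested did not overlap. These families in part repeat single genes named above, since Ighv10-1 leads Ighv10 and Igkv19-93 is all of Igkv19. Ighv3 had 4.87 to 5.16% in Prmt5-null and 4.50 to 4.84% in control libraries, and Ighv10 had 3.08 to 3.80% and 2.83 to 2.99%. Igkv14 had 4.94 to 5.25% and 4.43 to 4.77%, and Igkv19, which has the single gene Igkv19-93, had 3.34 to 3.56% and 2.88 to 3.31%.

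**Figure D3:**
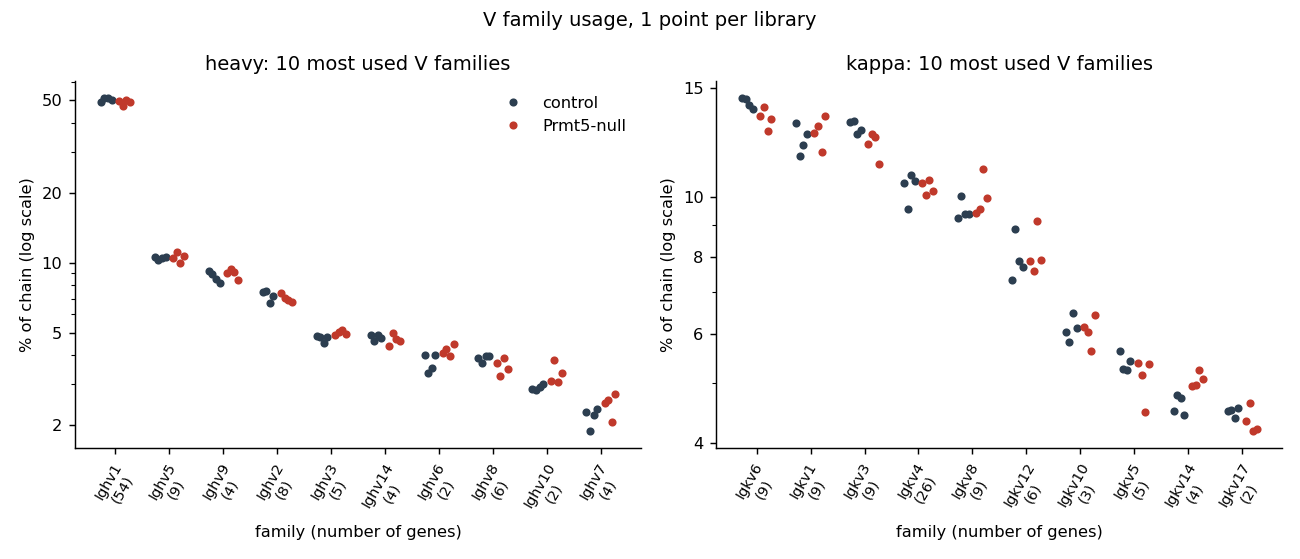
Share of the 10 most used heavy and kappa V families in percent of their chain on a log axis, with 1 point per library, control in dark and Prmt5-null in red; the number of genes of each family is in brackets. Ighv1 holds about 50% of heavy usage in every library, and Ighv3, Ighv10 and Igkv14 show higher points for Prmt5-null that do not overlap with control.

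Usage was also laid out along the loci. Ordered by distance from the J genes, the nearest 31 heavy genes held 35.3 to 37.4% of the usage of the matched heavy genes over the 8 libraries. The middle 31 held 33.7 to 35.9% and the farthest 30 held 27.6 to 31.0%. The middle genes had 34.4 to 35.9% in Prmt5-null and 33.7 to 34.2% in control libraries, without overlap, while the other bins overlapped. Of the matched kappa genes, the nearest 31 held 36.6 to 39.7%, the middle 31 held 22.9 to 24.4% and the farthest 31 held 36.2 to 39.6%, and in all of these bins the genotypes overlapped. A kappa V gene in the orientation of the J genes joins by deletion of the DNA between them, and one in the other orientation by inversion. The genes on the plus strand, that of the kappa J genes, were 36 of 93 and held 47.2 to 49.7% of the usage, and the 57 on the minus strand held 50.3 to 52.8%.

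**Figure D4:**
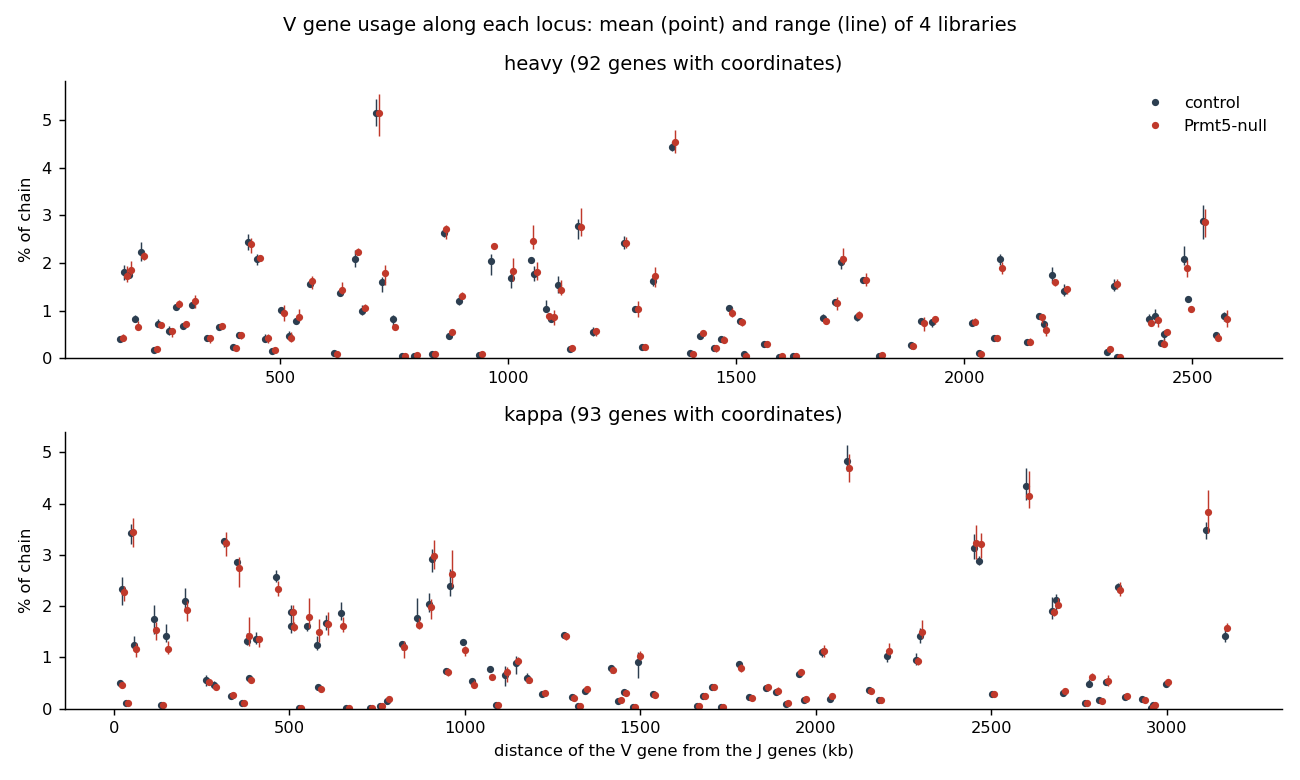
Share of each matched heavy (92) and kappa (93) gene in percent of its chain against its distance from the J genes in kb, with the mean as a point and the range of 4 libraries as a line, control in dark and Prmt5-null in red and set slightly to the right. Well used and little used genes lie side by side along both loci, and the genotypes follow each other closely.

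The libraries were close in V usage. The share of heavy usage that differed between 2 libraries (Bray-Curtis distance) was 4.40 to 5.70% within Prmt5-null, 3.76 to 4.82% within control and 4.31 to 6.59% between the genotypes. For kappa it was 3.86 to 6.13%, 3.62 to 5.46% and 4.01 to 7.67%. Spearman's rho between 2 libraries lay between 0.982 and 0.991 over the heavy and between 0.987 and 0.996 over the kappa genes, across genes that are not independent replicates. The library nearest in usage had the same genotype for 6 of 8 libraries by heavy, 7 by kappa and 4 by lambda genes, where 3 of the 7 other libraries share the genotype of any 1 library.

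The levels of single V genes were compared between the genotypes with limma on log2(normalized count + 1) over 16250 genes, and the call required both 1.5-fold and an adjusted p under 0.05. None of the 203 V genes was called, while 6.48% of all genes tested were, 3.49% as higher and 2.99% as lower in Prmt5-null. At an unadjusted p below 0.05 there were 15 V genes (7.39%, against 29.3% of all genes), and 1 had an adjusted p below 0.05 at any fold (13.8% of all genes did). edgeR and DESeq2 on the recovered reads also called none, with 13 V genes at an unadjusted p below 0.05 in each and 1 and 4 at an adjusted p below 0.05. The levels did not overlap between the genotypes for 5 V genes (2.46%, against 19.8% of all genes). The 95% interval of the fold change lay within 1.5-fold either way for 138 V genes (68.0%, against 57.4% of all genes). For the other 65 a change of that size was not excluded by the interval.

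The median log2 fold change was -0.09 over the V genes, at -0.05 for heavy, -0.14 for kappa and -0.08 for lambda genes, and 0.00 over all genes tested. Of the 203, 142 had a value below 0 and 61 above. The whole range ran from -0.66 to 0.58 and only 1 gene, Ighv1-43, with a mean of 24.4 normalized counts, lay past 1.5-fold.

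The 5 genes without overlap, all lower in Prmt5-null, were chosen for mention after their values were seen. Ighv8-8 had 477, 470, 499 and 521 normalized counts in Prmt5-null and 665, 545, 752 and 597 in control libraries. It was the gene with an adjusted p below 0.05 (log2 fold change -0.37, SE 0.11, limma adjusted p = 0.0494), but under 1.5-fold. No V gene had an adjusted p below 0.05 with a pseudocount of 5, without a filter on low values, with quantile normalization, or without 1 of 6 libraries, those other than control CTRL-10370 and CTRL-10597. Igkv4-53 had 349, 394, 352 and 418 in Prmt5-null and 611, 420, 560 and 457 in control libraries (log2 fold change -0.42, limma adjusted p = 0.0563). Here the highest Prmt5-null and the lowest control library differed by less than 3 normalized counts. Igkv3-7 stood at -0.29 (limma adjusted p = 0.0617), Ighv1-62-1 at -0.57 with a mean of only 25.6 normalized counts (limma adjusted p = 0.160), and Ighv1-76 at -0.21 (limma adjusted p = 0.251). The log2 fold changes of the 13 most used genes lay between -0.19 for Igkv1-117 and 0.04 for Igkv19-93, with limma adjusted p-values of at least 0.407.

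**Figure D5:**
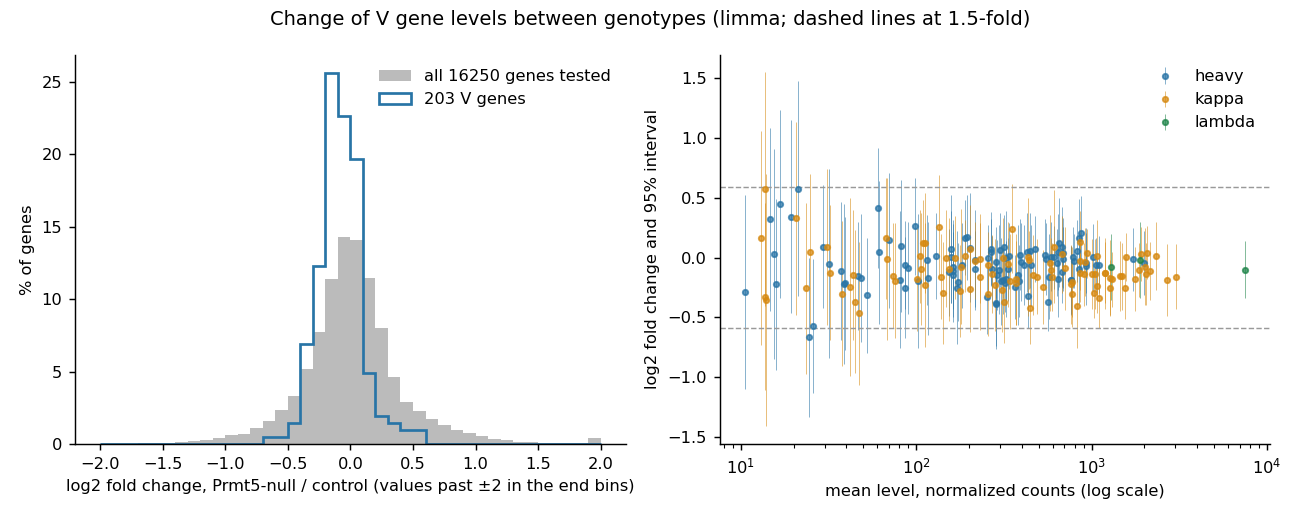
Left, log2 fold change of Prmt5-null against control for the 203 V genes (line) and all 16250 genes tested (grey), in percent of genes per bin. Right, the log2 fold change and 95% interval of each V gene against its mean level in normalized counts on a log axis, with dashed lines at 1.5-fold; the V genes lie closer to 0 than all genes, and the intervals are widest for genes with few reads.

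Other genes of the same pathway were looked at by fixed lists. Of all genes tested, limma called 6.48%, and 29.3% had an unadjusted limma p below 0.05. None of the 11 tested genes of V(D)J recombination was called by limma, edgeR or DESeq2, with 2 at an unadjusted p below 0.05 in each. The recombinase was nearly silent, with Rag1 at 4.31 to 18.7 normalized counts and Rag2 at 0 in all libraries but control CTRL-10597, which had 4.74. Dntt, the polymerase that adds bases at the joints, had at most 7.15. Xrcc5, a subunit of the end joining factor Ku, had a log2 fold change of -0.40 (limma adjusted p = 0.00379), under 1.5-fold. Of the surrogate light chain genes only Vpreb3 was high enough to be tested, at 0.34 (limma adjusted p = 0.121). None of 16 factors that act on V promoters and immunoglobulin enhancers was called by limma, edgeR or DESeq2, with 4 at an unadjusted p below 0.05 in each. Pou2af1, the coactivator of octamer factors, had 55963 to 67517 normalized counts in Prmt5-null and 66868 to 70467 in control libraries (log2 fold change -0.15, limma adjusted p = 0.277). Spi1, a myeloid and B cell transcription factor, stood at -0.30 (limma adjusted p = 0.0218), under 1.5-fold. Of the 16 factors, 10 had a log2 fold change below 0 and 6 above. Among those above were Spib at 0.21, Nfkb1 at 0.20 and Pax5 at 0.20 (limma adjusted p = 0.129, 0.237 and 0.200). Irf4, at 0.19 (limma adjusted p = 0.134), was also above.

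The J genes were looked at in the same way. None of 9 was called or had an unadjusted p below 0.05 by limma, edgeR or DESeq2. All 9 had a log2 fold change below 0, with a median of -0.11. Ighj4 held 45.7 to 48.4% of the heavy J counts in Prmt5-null and 46.9 to 48.6% in control libraries, followed by Ighj3 at 28.4 to 30.0% and 27.5 to 29.0%. Igkj1 held 29.8 to 31.7% and 29.7 to 31.5% of the kappa J counts, and Igkj3 was the least used at 1.44 to 2.60% and 1.47 to 2.58%.

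The constant genes, to which the V genes are spliced, were looked at by another such list. Ighg2b was the 1 gene that limma called of the 9 tested (6.48% of all genes were called), with 320, 306, 216 and 340 normalized counts in Prmt5-null and 111, 75.8, 118 and 114 in control libraries (log2 fold change 1.49, SE 0.19, limma adjusted p = 0.000481). Ighm, the constant gene of IgM, had 126066 to 136507 in Prmt5-null and 82035 to 113888 in control libraries, a log2 fold change of 0.46 (limma adjusted p = 0.0156), under 1.5-fold. Ighe, the constant gene of IgE, stood at -0.73 (limma adjusted p = 0.0546) and was called lower by edgeR (adjusted p = 0.0431) and DESeq2 (adjusted p = 0.0045), and Igkc at -0.10 (limma adjusted p = 0.621). Iglc2, a lambda constant gene, stood at -0.03 (limma adjusted p = 0.862). Ighg1 stood at 0.23 (limma adjusted p = 0.0945), without overlap between the genotypes. Ighg2c, Ighg3 and Igha stood at 0.66, 0.50 and -0.55 (limma adjusted p = 0.330, 0.0944 and 0.364). Of the 9, 5 had an unadjusted p below 0.05 by limma, edgeR and DESeq2 each (29.3% of all genes by limma). At an adjusted p below 0.05 there were 2, 3 and 5 (13.8% of all genes by limma).

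Near-identical copies limit the values of some V genes, because only reads that map to 1 place were counted. Of the 188 genes with a sequence, 111 had every window of 100 bases to themselves, and 5 shared more than 50% of their windows with another annotated transcript. Ighv1-71 and Ighv1-62-2 were identical over all 302 bases compared, with 1.73% and 5.60% of their windows unique, so that their means of 60.7 and 287 normalized counts are uncertain. Ighv1-62-3 and Ighv1-72 differed at 3 of 396 bases, and Igkv6-20 and Igkv6-29 also shared many windows.

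The rows next to the threshold on the mean were Ighv8-13 (10.5 normalized counts) and Igkv8-26 (13.0) just inside it, and Igkv4-56 (9.07) and Ighv11-1 (7.99) just outside. Of the 18 rows outside, 3 had no read in any library, which allows up to 3 reads in each.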

How the data were processed

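RNA depleted of ribosomal RNA was sequenced as stranded paired reads from 4 Prmt5-null and 4 control cultures. According to the submitters' processing notes and the study's methods, the authors trimmed reads with Trimmomatic 0.32, aligned them with STAR 2.3.0e to mm10 (GRCm38), counted uniquely mapped reads per Ensembl gene over its exons (featureCounts 1.4.4) and deposited the counts as a signal divided by DESeq2 1.14.1 size factors. The strand setting of the counting is not given in the sources used here, so overlapping genes are uncertain. Spliced V(D)J reads may align poorly to a genome in which the segments are apart. Splicing tables hold p-values and inclusion levels of the authors' own comparison and were not used.

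All values were whole reads (100%, tolerance 0.001 reads). Genotypes were compared with limma 3.58.1 (trend) in R 4.3.3 on log2(value + 1), for genes with a mean of at least 10, with Benjamini-Hochberg adjustment; the recovered reads were also tested with DESeq2 1.42.0 and edgeR 4.0.16. The fold change on this scale understates the change of low genes. Shares, diversity and distances were computed in Python 3.11.15 and have no test. The V genes and lists were chosen with earlier results of these data known. Named were the 5 most used genes per chain, called genes and the 3 per chain with the highest library to median ratio. Leaders of the 5 most used families, rows next to the threshold, Prmt5 and some of the large changes of other lists were also named. Some exceptions are marked, but others, among them Pou2af1, Igkc and Iglc2, are not. Promoter sequences of V genes were not used here. The script was tested on simulated data.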

Additional observations from a re-analysis of the deposited data

Results flagged for a closer look

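Among 55 named results, each looked at in both genotypes (110 groups of 4 libraries), 6 had 1 library far from the other 3 by Dixon's test, and chance flags about 1 in 20 such groups. The share of Igkv12-38 was 0.236% in Prmt5-null library 10770, against 0.171 to 0.178% in the other Prmt5-null libraries, and 0.187% in control library CTRL-10370, against 0.146 to 0.153% in the other control libraries. Igkv14-130 had 0.145% in Prmt5-null library 10770, against 0.175 to 0.177%. Igkv6-15 had 3.15% in control library CTRL-10596, against 3.30%, and the Ighv3 family had 4.50% in the same library, against 4.80 to 4.84%. The lambda share of light chain V counts was 14.4% in Prmt5-null library 10771, against 14.7%. The genes Igkv12-38 and Igkv14-130 were named for a large ratio of 1 library to the median. For Igkv12-38 that library was Prmt5-null 10770, so that its flag there is what chose the gene. The flag of Igkv12-38 in control CTRL-10370 did not choose it. Igkv14-130 was chosen by control CTRL-10596, which is not the library flagged for it.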

How the results depend on the processing

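No V gene was called, higher or lower, under another pseudocount (0.5 or 5), a minimum mean of 50, no filter, quantile normalization, no trend, edgeR, DESeq2, the side of the second principal component as a block, or without any 1 library. The median log2 fold change of the V genes without 1 library ranged from -0.15 (without control CTRL-10370) to -0.02 (without control CTRL-10596). The genotype differences in effective number, top gene share and lambda share moved by less than 1 SD (the root mean square of the SDs of both genotypes) under every alternative tried. Leaving out 1 library gave -0.81 to -0.48 (heavy), -0.29 to 0.13 (kappa) and 0.0050 to 0.052 (lambda) for the effective number, and 0.153 to 0.433 percentage points for the lambda share, the lowest without control CTRL-10597, a move larger than the Prmt5-null SD of 0.14. Heavy mean effective numbers were 63.2 (Prmt5-null) and 63.8 (control) over the 92 matched genes of the 103 heavy genes, and 62.6 and 63.2 when the levels were also divided by exonic length.

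Log2 fold changes near 0 changed sign without 1 library, from -0.12 to 0.039 (Ighv9-3), -0.086 to 0.046 (Ighv1-26), -0.15 to 0.027 (Ighv1-82), -0.13 to 0.022 (Ighv1-9), -0.081 to 0.077 (Ighv3-6), -0.082 to 0.10 (Igkv1-135), -0.022 to 0.11 (Igkv19-93), -0.12 to 0.078 (Iglv2) and -0.18 to 0.015 (Iglv3).

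No paired analysis was possible because the genotypes share no replicate numbers. The block on the sides of the second principal component, which match the 2 experiments if samples are numbered as listed, called no V gene, with 14 at an unadjusted p below 0.05 and 1 at an adjusted p below 0.05. Genes with under 100 normalized counts have counting errors above 10% of their value.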
